A study of Mus musculus with 9 samples.

Results

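Transforming growth factor beta (TGF-beta) signalling was followed in cultured mouse cardiac fibroblasts through the messages of its 3 ligands (Tgfb1, Tgfb2, Tgfb3), its 3 receptors (Tgfbr1, Tgfbr2, Tgfbr3) and 4 SMAD proteins (Smad2, Smad3, Smad4, Smad7). The members were taken by gene symbol, and they are 10 of the 56953 genes in the deposited table. The cells were primary wild-type fibroblasts from hearts of adult male C57BL/6N mice, cultured in serum-containing medium and harvested 72 h after infection with an adenovirus. All 9 libraries came from infected cells: 3 with a virus for green fluorescent protein (Ad-GFP, the control), 3 with a virus for junctophilin-2 (Ad-JP2) and 3 with a virus for a hairpin against junctophilin-2 (Ad-shJP2). There was no uninfected group, and the sources used here do not say whether the 3 libraries of a group came from separate cultures or animals. If they did not, the p-values measure only the spread between these libraries, which may be technical. Levels are given in TPM, a measure of message abundance already divided by transcript length and scaled to the same total in each library, so that levels of different genes can be set side by side.

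The TGF-beta ligands are secreted in a latent form that is held in the extracellular matrix until integrins, thrombospondin or proteases release it. An active ligand binds the type II receptor Tgfbr2, which phosphorylates the type I receptor Tgfbr1, and Tgfbr1 in turn phosphorylates Smad2 and Smad3, which enter the nucleus with Smad4. Smad7, itself induced by the pathway, turns the receptor off. In cardiac fibroblasts the pathway is known for driving matrix production and conversion to contractile myofibroblasts.

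Jph2, the gene that the viruses address, checks the labels. Its level was 132, 127.5 and 128 TPM in Ad-GFP, 737, 691 and 637 TPM in Ad-JP2, and 116.5, 123 and 119 TPM in the libraries labelled Ad-shJP2. The Ad-JP2 libraries were far above the control (log2 fold change 2.40, SE 0.05, limma adjusted p = 3.1e-08), whereas the difference in the libraries labelled Ad-shJP2 did not pass (-0.11, SE 0.05, limma adjusted p = 0.072). For that reason these are called the libraries labelled Ad-shJP2 throughout. Their estimated depth was also lower, 21.3 to 33.2 M reads against 40.6 to 45.8 M for Ad-GFP and 36.9 to 41.2 M for Ad-JP2. A gene counted as called higher or lower when its adjusted p was under 0.05 in a limma fit over all 14215 genes that reached 1 TPM in at least 3 libraries.

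All 10 members were expressed above that limit and were tested, Tgfbr1 and Tgfbr3 only through the Ad-GFP and Ad-JP2 libraries, since each was under 1 TPM in all 3 libraries labelled Ad-shJP2. In Ad-JP2, 3 members rose against Ad-GFP (Tgfb2, Tgfbr1 and Smad4) and 1 fell (Smad3). Over all genes tested 15% were called in this comparison, 13.4% higher and 1.64% lower. Against the same control, 8 members fell in the libraries labelled Ad-shJP2 and Tgfb1 alone rose, with Smad2 not called. There 59.4% of all genes were called, 21.8% higher and 37.7% lower. Between Ad-JP2 and the libraries labelled Ad-shJP2, 8 members were higher in Ad-JP2 and 1 was lower, against a background of 64.4% called, 40.3% higher and 24.1% lower. The F-test for any difference among the 3 groups called 9 members, all but Smad2, against 63.7% of all genes. The member medians of the log2 fold change were 0.11, -0.72 and 0.72 in these 3 comparisons, beside 0.01, -0.11 and 0.10 for all genes tested. Each pair of these comparisons shares 1 group of libraries, so they are not independent of each other.

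**Figure D1:**
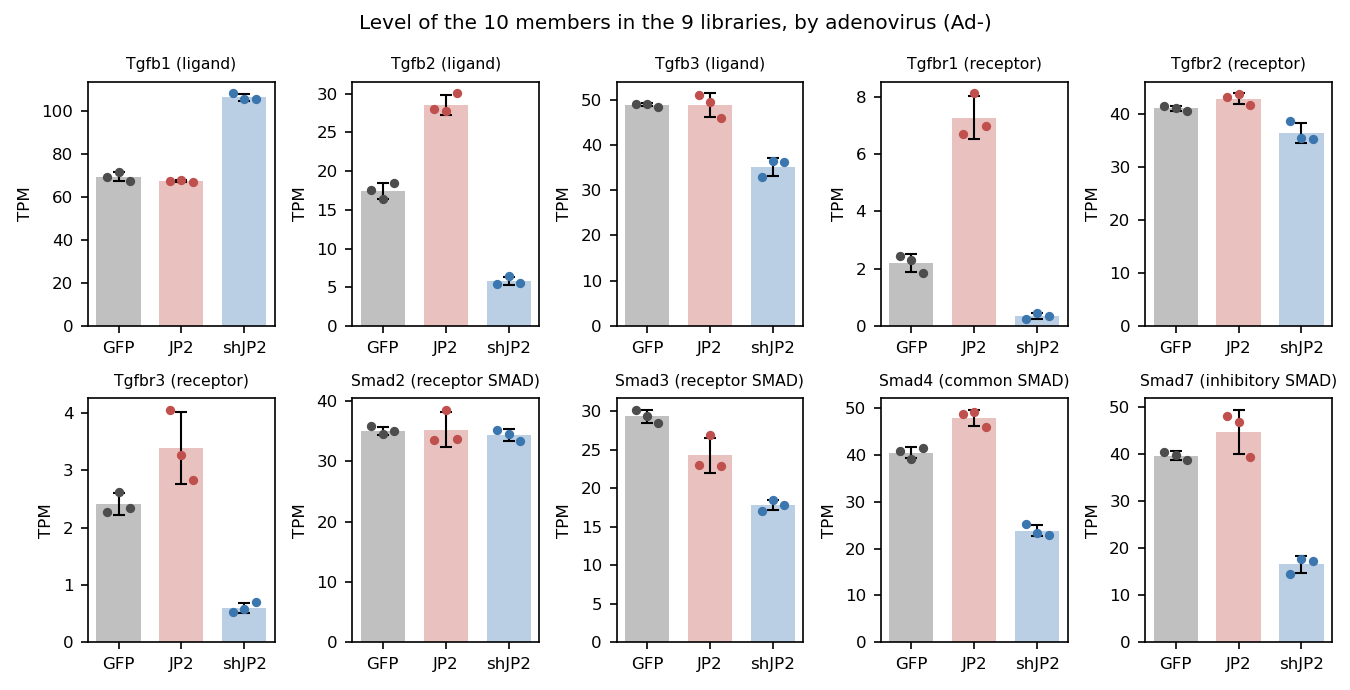
Level of each member in TPM (y axis, starting at 0) in each of the 9 libraries, by virus; points are libraries, bars are group means and error bars are SD (n = 3). Tgfb1 is highest in the libraries labelled Ad-shJP2 (105 to 108 TPM), Tgfbr1 and Tgfb2 step up in Ad-JP2 and down in the libraries labelled Ad-shJP2, and Smad2 lies between 33.3 and 38.5 TPM in all 9.

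Tgfb1 (ENSMUSG00000002603) encodes the most studied isoform and was the most abundant of the 10 messages in every group. Its level was 69.4, 71.5 and 67.4 TPM in Ad-GFP, 67.4, 67.7 and 66.7 TPM in Ad-JP2, and 108, 106 and 105 TPM in the libraries labelled Ad-shJP2. The first 6 libraries overlapped and the last 3 stood clear above them. Averaged by group these were 69.4 ± 2.04, 67.3 ± 0.494 and 106 ± 1.62 TPM (SD, n = 3). The mean level was 1.53 times the control in the libraries labelled Ad-shJP2 (log2 fold change 0.61, SE 0.03, limma adjusted p = 3.3e-07). The Ad-JP2 libraries differed from the control by -0.04 on that scale (95% interval -0.11 to 0.02, limma adjusted p = 0.43).

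Tgfb2 (ENSMUSG00000039239), the isoform needed for heart valve and outflow tract development, ran the other way. Its level was 17.5, 16.3 and 18.5 TPM in Ad-GFP, 28, 27.7 and 30.1 TPM in Ad-JP2, and 5.43, 6.41 and 5.56 TPM in the libraries labelled Ad-shJP2. The 3 groups were fully separated, with Ad-JP2 highest. Averaged by group these were 17.4 ± 1.07, 28.6 ± 1.29 and 5.80 ± 0.528 TPM (SD, n = 3), that is 1.64-fold higher than the control in Ad-JP2 (log2 fold change 0.68, SE 0.07, limma adjusted p = 2.3e-04) and 3.01-fold lower in the libraries labelled Ad-shJP2 (-1.44, SE 0.07, limma adjusted p = 3.2e-07). Ad-JP2 held 4.93 times the Tgfb2 level of the libraries labelled Ad-shJP2.

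Tgfb3 (ENSMUSG00000021253), the third isoform, followed Tgfb2 downwards only. Its level was 49.0, 49.0 and 48.5 TPM in Ad-GFP, 51.1, 49.5 and 46.0 TPM in Ad-JP2, and 32.8, 36.4 and 36.2 TPM in the libraries labelled Ad-shJP2. The Ad-GFP libraries lay inside the Ad-JP2 range, and the remaining 3 were lower than both. Under that label the mean level was 1.39-fold lower than in the control (log2 fold change -0.47, SE 0.05, limma adjusted p = 5.3e-05). The log2 difference in Ad-JP2 was -0.00 (95% interval -0.12 to 0.12, limma adjusted p = 0.99).

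Tgfb1 and Tgfb2 moved in opposite directions in the libraries labelled Ad-shJP2, while in Ad-JP2 only Tgfb2 was called. The summed ligand level moved far less than its make-up. The sum of the 3 ligands was 134 to 137 TPM in Ad-GFP, 143 to 146 TPM in Ad-JP2 and 147 to 148 TPM in the libraries labelled Ad-shJP2, narrow differences with no overlap of library values. The last 2 groups nearly touched, at 146.4 TPM in Ad-JP2 replicate 1 and 146.6 TPM in replicate 1 of the libraries labelled Ad-shJP2. The sums were not recomputed with another scaling. Tgfb1 made up 50.2% to 52.2% of that sum in Ad-GFP, 46.0% to 46.7% in Ad-JP2 and 71.2% to 73.9% in the libraries labelled Ad-shJP2. Tgfb2 held 11.9% to 13.7%, 19.1% to 21.1% and 3.71% to 4.32% of it in the same order. The ratio of the Tgfb1 to the Tgfb2 level was thus 3.65 to 4.38 in the control, 2.22 to 2.44 in Ad-JP2 and 16.5 to 19.9 in the libraries labelled Ad-shJP2, with no overlap between groups. These shares describe messages, not secreted or active protein, and they were not tested apart from the genes that make them up.

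**Figure D2:**
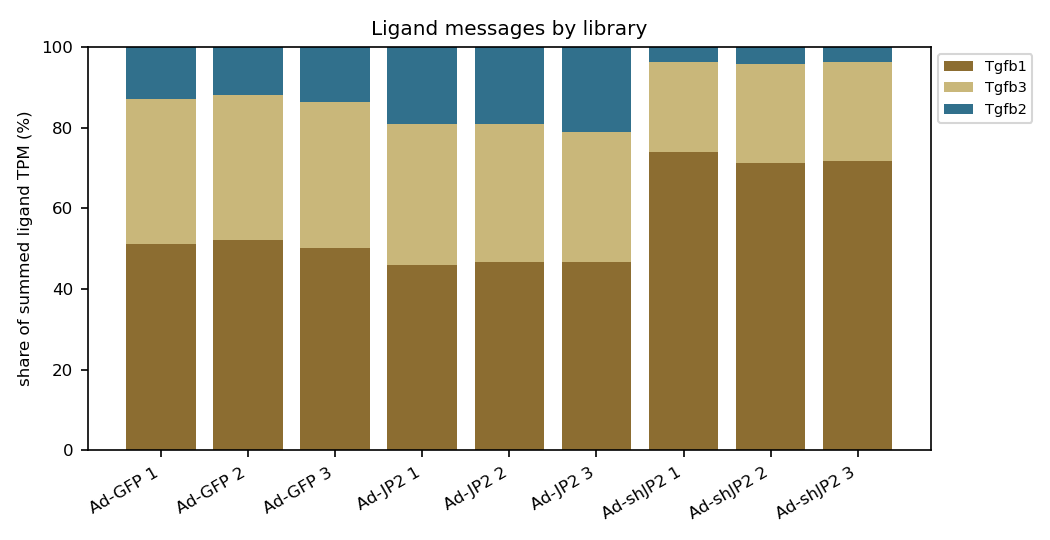
Share of each ligand message in the summed TPM of Tgfb1, Tgfb2 and Tgfb3 (y axis, percent, 0 to 100) for each of the 9 libraries. The Tgfb1 share is 71.2% to 73.9% in the libraries labelled Ad-shJP2 and at most 52.2% elsewhere, and the Tgfb2 share is largest in the Ad-JP2 libraries (19.1% to 21.1%).

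Since Tgfb1 and Tgfb2 separated so clearly, the DNA before their start sites is shown, together with that of Tgfbr1, the receptor that moved most. The sequences are the 250 bases before the start site in the RefSeq promoter table for GRCm38.p6, read in the direction of the gene; 5 of the 10 members matched an entry of that table. They are Tgfb1 at chr7:25686752-25687001 (plus strand), Tgfb2 at chr1:186705990-186706239 (minus strand) and Tgfbr1 at chr4:47352972-47353221 (plus strand). Capitals mark matches, on either strand, to the letters of any of 7 motifs: TATAAA for the TATA box, the letters CCAAT of the box with that name, GGGCGG for the GC box, CACGTG for an E-box, TGACG for the core of a cAMP response element, CAGAC for the SMAD box and TGANTCA for an AP-1 site.
Tgfb1: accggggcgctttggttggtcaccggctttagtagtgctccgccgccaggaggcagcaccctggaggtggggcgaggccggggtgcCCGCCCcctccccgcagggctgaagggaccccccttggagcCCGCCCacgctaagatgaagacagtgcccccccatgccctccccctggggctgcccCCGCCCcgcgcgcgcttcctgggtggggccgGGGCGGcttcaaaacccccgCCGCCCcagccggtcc
Tgfb2: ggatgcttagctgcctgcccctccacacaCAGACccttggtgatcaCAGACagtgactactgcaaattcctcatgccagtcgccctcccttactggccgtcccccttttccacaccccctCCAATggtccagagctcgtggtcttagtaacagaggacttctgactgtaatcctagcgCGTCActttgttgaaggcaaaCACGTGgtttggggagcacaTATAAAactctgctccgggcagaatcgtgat
Tgfbr1: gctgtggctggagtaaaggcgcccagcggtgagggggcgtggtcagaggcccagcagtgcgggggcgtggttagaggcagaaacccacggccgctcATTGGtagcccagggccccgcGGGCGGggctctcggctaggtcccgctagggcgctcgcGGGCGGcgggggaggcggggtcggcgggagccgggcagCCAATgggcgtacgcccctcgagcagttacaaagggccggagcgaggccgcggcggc
The Tgfb1 window was 75.2% G and C and held 5 GC boxes and none of the other letters searched. The Tgfbr1 window shown was 74.8% G and C and held 2 GC boxes and 2 CCAAT boxes. The Tgfb2 window was 53.6% G and C and held a TATA box whose first base lies 31 bases before the start, with 1 CCAAT box, 1 E-box, 1 core of a cAMP response element and 2 SMAD boxes.

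No matches overlapped in these windows. Of the 32851 promoter windows of this length in the same table, 12.4% held TATAAA, 33.8% CCAAT, 32.7% GGGCGG, 6.02% CACGTG, 17.8% TGACG, 42.2% CAGAC and 6.75% TGANTCA. The table holds another start site for Tgfbr1, at chr4:47385966-47386215, whose window was 52.8% G and C and held 1 SMAD box and none of the other letters. The TPM values are per gene and do not separate the start sites. A match to letters is a description only, and no binding was measured in this series.

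Tgfbr1 (ENSMUSG00000007613), the kinase that phosphorylates Smad2 and Smad3, was scarce and moved by the largest ratio of mean TPM among the members in both comparisons with the control. Its level was 2.44, 2.30 and 1.84 TPM in Ad-GFP, 6.71, 8.13 and 7.0 TPM in Ad-JP2, and 0.241, 0.468 and 0.353 TPM in the libraries labelled Ad-shJP2. The 3 groups were fully separated. Averaged by group these were 2.19 ± 0.311, 7.28 ± 0.753 and 0.354 ± 0.114 TPM (SD, n = 3), 3.32-fold higher than the control in Ad-JP2 and 6.20-fold lower in the libraries labelled Ad-shJP2. Ad-JP2 held 20.6 times the level of the libraries labelled Ad-shJP2.

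The Tgfbr1 log2 fold change, on the log2(TPM + 1) scale that understates changes of scarce messages, was 1.37 in Ad-JP2 (SE 0.11, limma adjusted p = 6.3e-05) and -1.24 in the libraries labelled Ad-shJP2 (SE 0.11, limma adjusted p = 1.6e-05). With a pseudocount of 0.1 in place of 1 the differences were 1.69 and -2.36. Only 78 of the 14215 genes tested had a larger log2 fold change in Ad-JP2. The counts behind these levels were small: the estimated reads on Tgfbr1 were 166 to 235 in Ad-GFP, 553 to 613 in Ad-JP2 and 11.6 to 35.1 in the libraries labelled Ad-shJP2. These estimates are approximate outside Ad-GFP replicate 3.

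Tgfbr2 (ENSMUSG00000032440), the ligand-binding type II receptor, was the abundant receptor and moved least of the 3. Its level was 41.6, 41.2 and 40.7 TPM in Ad-GFP, 43.3, 43.8 and 41.8 TPM in Ad-JP2, and 38.7, 35.5 and 35.3 TPM in the libraries labelled Ad-shJP2. The groups were narrowly separated, with Ad-JP2 highest and the libraries labelled Ad-shJP2 lowest. The last group's mean was 1.13-fold lower than in the control (log2 fold change -0.17, SE 0.04, limma adjusted p = 0.0078). That call was lost with median-of-ratios scaling (-0.06, limma adjusted p = 0.27) and turned to 0.063 after correction for GC content and length (limma adjusted p = 0.23). In Ad-JP2 the log2 difference was 0.06 (95% interval -0.04 to 0.16, limma adjusted p = 0.46), although the library values did not overlap.

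Tgfbr3 (ENSMUSG00000029287), or betaglycan, a co-receptor that presents Tgfb2 to Tgfbr2, was as scarce as Tgfbr1 in the control. Its level was 2.27, 2.63 and 2.34 TPM in Ad-GFP, 4.06, 3.28 and 2.83 TPM in Ad-JP2, and 0.522, 0.585 and 0.697 TPM in the libraries labelled Ad-shJP2. All Ad-JP2 libraries were above and all libraries labelled Ad-shJP2 below the control. The mean was 4.01-fold lower than the control in the libraries labelled Ad-shJP2 (log2 fold change -1.09, SE 0.12, limma adjusted p = 4.2e-05). This fall was -0.63 after correction for GC content and length and -1.85 with a pseudocount of 0.1. It rests on an estimated 40.3 to 81.4 reads in the libraries labelled Ad-shJP2. The log2 difference of 0.35 in Ad-JP2 did not pass (95% interval 0.09 to 0.62, limma adjusted p = 0.082), and without Ad-JP2 replicate 3 it was 0.45 and passed (limma adjusted p = 0.047). After correction for GC content and length it was 0.09 (limma adjusted p = 0.64), and with quantile normalization 0.19 (limma adjusted p = 0.26).

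The balance of the type II to the type I receptor message shifted accordingly. Tgfbr2 was present at 17.1 to 22 times the Tgfbr1 level in Ad-GFP, 5.39 to 6.45 times in Ad-JP2 and 75.9 to 161 times in the libraries labelled Ad-shJP2. The widest spread belongs to the last group, where the denominator rests on at most 35.1 estimated reads. These ratios are before correction for GC content and length. After it, the log2 fold change of Tgfbr1 shrank to 0.80 in Ad-JP2 and -0.50 in the libraries labelled Ad-shJP2. That of Tgfbr2 was then -0.09 and 0.063.

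Smad2 and Smad3 are the 2 SMADs that TGF-beta receptors phosphorylate. Smad2 (ENSMUSG00000024563) had a level of 35.8, 34.5 and 34.9 TPM in Ad-GFP, 33.5, 38.5 and 33.6 TPM in Ad-JP2, and 35.2, 34.5 and 33.3 TPM in the libraries labelled Ad-shJP2. All 3 groups overlapped. The log2 differences from the control were 0.00 in Ad-JP2 (95% interval -0.12 to 0.13, limma adjusted p = 0.98) and -0.03 in the libraries labelled Ad-shJP2 (95% interval -0.16 to 0.10, limma adjusted p = 0.68). After correction for GC content and length both became calls, lower in Ad-JP2 (-0.33, limma adjusted p = 0.0060) and higher in the libraries labelled Ad-shJP2 (0.39, limma adjusted p = 3.7e-04).

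Smad3 (ENSMUSG00000032402), which binds DNA directly, was highest in the control. Its level was 30.2, 29.4 and 28.4 TPM in Ad-GFP, 23.0, 26.9 and 22.9 TPM in Ad-JP2, and 17.1, 18.4 and 17.9 TPM in the libraries labelled Ad-shJP2. The groups did not overlap, with Ad-JP2 in the middle. The mean was 1.65-fold lower than the control in the libraries labelled Ad-shJP2 (log2 fold change -0.69, SE 0.07, limma adjusted p = 1.9e-05) and 1.21-fold lower in Ad-JP2 (-0.26, SE 0.07, limma adjusted p = 0.025). The Ad-JP2 call was lost on leaving out Ad-GFP replicate 1 or 2 or Ad-JP2 replicate 1 or 3, where the log2 fold change was -0.26 to -0.23 and limma's adjusted p 0.0748 to 0.0911.

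The ratio of the Smad2 to the Smad3 level was 1.17 to 1.23 in Ad-GFP, 1.43 to 1.47 in Ad-JP2 and 1.86 to 2.06 in the libraries labelled Ad-shJP2. It was therefore higher than in the control under both other viruses, before correction for GC content and length. After the correction, the log2 fold changes of Smad2 and Smad3 in Ad-JP2 were close to each other (-0.33 and -0.38). In the libraries labelled Ad-shJP2 they still parted (0.39 and -0.47). Relative to Ad-GFP, Smad3 alone among the members was called lower under both viruses.

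Smad4 (ENSMUSG00000024515), the common partner of the phosphorylated SMADs, was 40.8, 39.1 and 41.5 TPM in Ad-GFP, 48.7, 49.0 and 45.9 TPM in Ad-JP2, and 25.3, 23.3 and 22.9 TPM in the libraries labelled Ad-shJP2. The 3 groups were separated, as for Tgfb2 and Tgfbr1. The mean level was 1.18-fold higher than the control in Ad-JP2 (log2 fold change 0.24, SE 0.05, limma adjusted p = 0.0098) and 1.70-fold lower in the libraries labelled Ad-shJP2 (-0.74, SE 0.05, limma adjusted p = 1.8e-06). The rise in Ad-JP2 was 0.06 after correction for GC content and length and no longer passed (limma adjusted p = 0.41).

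Smad7 (ENSMUSG00000025880), the inhibitory SMAD, was 40.6, 39.8 and 38.8 TPM in Ad-GFP, 48.0, 46.9 and 39.4 TPM in Ad-JP2, and 14.5, 17.8 and 17.4 TPM in the libraries labelled Ad-shJP2. The Ad-JP2 libraries reached into the control range through replicate 3, and the last group lay far below. The mean level was 2.40-fold lower than the control in the libraries labelled Ad-shJP2 (log2 fold change -1.22, SE 0.09, limma adjusted p = 3.8e-06). The log2 difference in Ad-JP2 was 0.16 (95% interval -0.04 to 0.37, limma adjusted p = 0.31). The ratio of the Smad7 to the Smad3 level was 1.34 to 1.37 in Ad-GFP, 1.72 to 2.08 in Ad-JP2 and 0.849 to 0.973 in the libraries labelled Ad-shJP2.

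**Figure D3:**
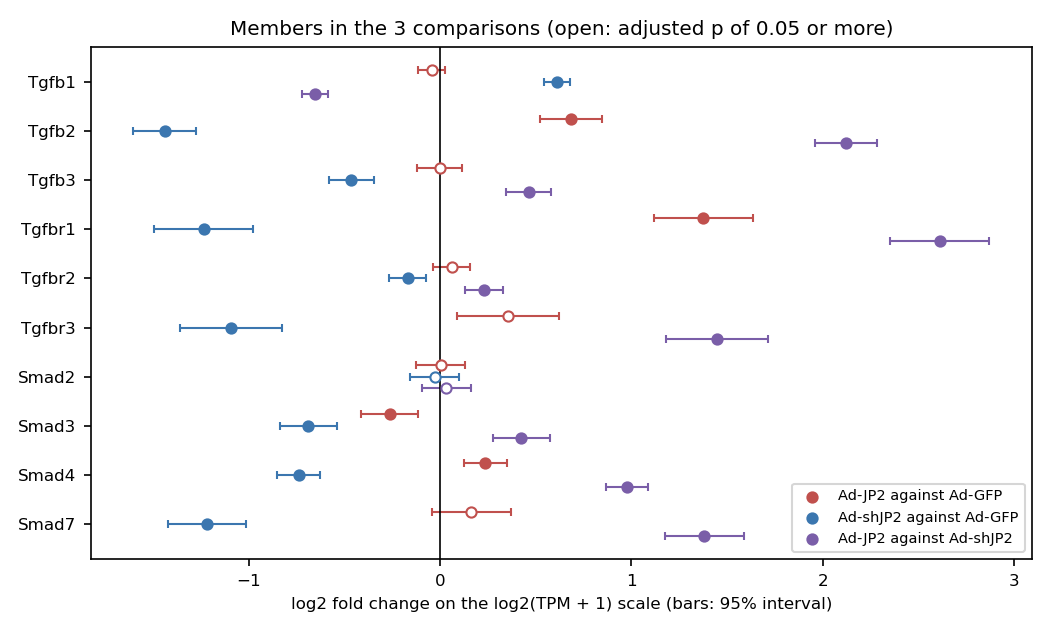
Log2 fold change of each member on the log2(TPM + 1) scale (x axis) in the 3 comparisons, with 95% intervals; open points had an adjusted p of 0.05 or more. The points furthest from 0 are those of Tgfbr1 and Tgfb2, up to 2.61 and 2.12 for Ad-JP2 against Ad-shJP2, and Tgfb1 is the only member called higher in the libraries labelled Ad-shJP2 (0.61).

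Values of the 2 groups did not overlap for 6 members in Ad-JP2 against Ad-GFP, where this held for 32.2% of all genes. It held for 9 members in the libraries labelled Ad-shJP2 against Ad-GFP (65.3% of all genes) and for 9 in Ad-JP2 against the libraries labelled Ad-shJP2 (67.1%). The coefficient of variation of a member within a group of 3 ranged from 0.687% (Tgfb3 in Ad-GFP) to 32.1% (Tgfbr1 in the libraries labelled Ad-shJP2), with a median of 5.24%.

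The order of the member levels changed with the virus. In Ad-GFP the order of mean TPM was Tgfb1, Tgfb3, Tgfbr2, Smad4, Smad7, Smad2, Smad3, Tgfb2, Tgfbr3 and Tgfbr1, where Tgfbr2, Smad4 and Smad7 overlapped as neighbours, as did Tgfbr3 and Tgfbr1. In Ad-JP2, Tgfb2 passed Smad3 and Tgfbr1 passed Tgfbr3, while Tgfb3, Smad4, Smad7 and Tgfbr2 overlapped as neighbours. With the libraries labelled Ad-shJP2, Smad2 stood above Smad4, and Smad7 dropped to the level of Smad3, which it overlapped. Tgfbr2, Tgfb3 and Smad2 overlapped as neighbours there.

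GC content differed widely among the members. The transcripts used ranged from 41.0% G and C for Tgfbr1 and 43.1% for Smad2, through 47.3% for Smad4, 48.2% for Tgfb2, 48.6% for Tgfbr3, 53.0% for Tgfb3, 53.1% for Smad3 and 54.6% for Tgfbr2, to 56.9% for Smad7 and 62.5% for Tgfb1. After each library was corrected for GC content and length, 2 members were higher and 2 lower in Ad-JP2 (Tgfb2 0.48 and Tgfbr1 0.80 against Smad3 -0.38 and Smad2 -0.33). For the libraries labelled Ad-shJP2 the corrected counts were 2 higher (Tgfb1 0.55 and Smad2 0.39) and 7 lower. The 7 were Smad7 at -1.12, Tgfb2 at -1.05, Tgfbr3 at -0.63, Tgfbr1 at -0.50, Smad3 at -0.47, Smad4 at -0.43 and Tgfb3 at -0.31. Against the libraries labelled Ad-shJP2, Ad-JP2 then had 6 members higher and 3 lower. The member medians became 0.02, -0.45 and 0.36. Tgfbr1 thus kept its calls at smaller sizes, by a factor above 1.5 in both comparisons with the control, while Tgfb1 (0.61 to 0.55) and Smad7 (-1.22 to -1.12) shifted little in the libraries labelled Ad-shJP2. Over all genes the calls in Ad-JP2 went from 1902 higher and 233 lower to 890 and 1104, and those in the libraries labelled Ad-shJP2 from 3093 and 5353 to 4036 and 3832. The counts before the correction are over 14215 genes and those after it over the 14025 with a GC content. Whether GC content contributes to the differences in these libraries was not tested beyond this correction.

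**Figure D4:**
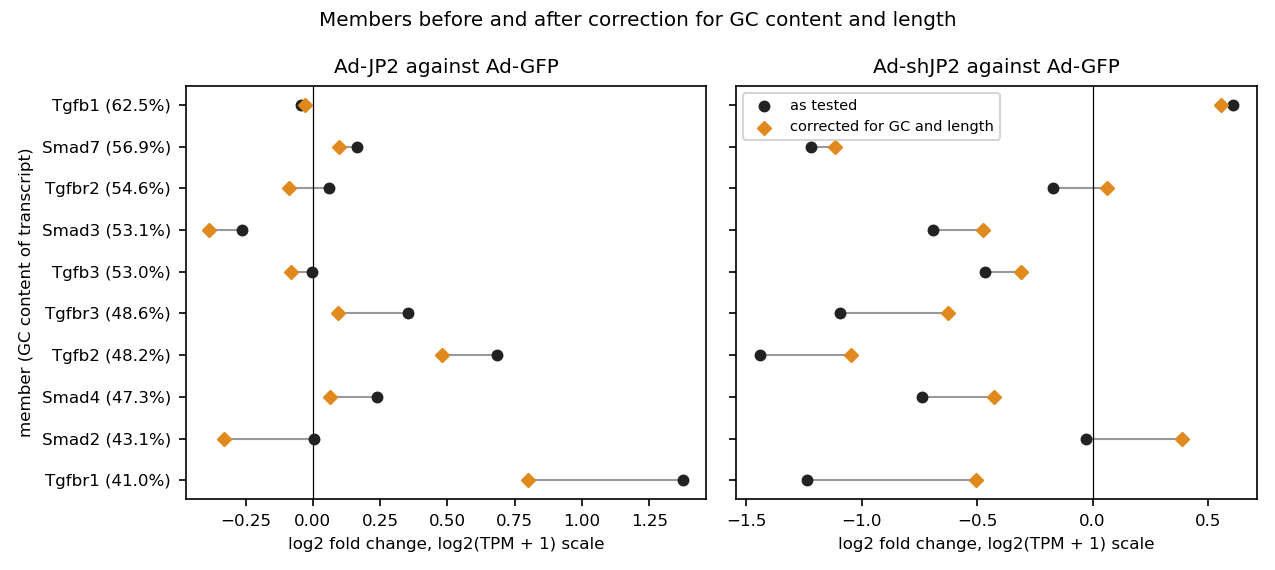
Log2 fold change of each member (x axis) against Ad-GFP before (circles) and after (diamonds) correction for GC content and length, for Ad-JP2 and for the libraries labelled Ad-shJP2; members are ordered by the GC content of their transcript, given beside the symbol. The shift is widest at the low end, where Tgfbr1 goes from 1.37 to 0.80 and from -1.24 to -0.50, and small at the high end, where Tgfb1 goes from 0.61 to 0.55.

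Genes around the members were described in 6 lists, by counts and medians only. Beside them stand the shares of all genes tested, 13.4% higher and 1.64% lower in Ad-JP2 and 21.8% and 37.7% in the libraries labelled Ad-shJP2. The first held 22 tested genes that keep the ligands latent or activate them. In Ad-JP2, 6 were higher and 0 lower (median log2 fold change 0.02, and -0.00 with median-of-ratios scaling). The libraries labelled Ad-shJP2 had 2 higher and 17 lower, and the list median was -0.44 beside -0.11 for all genes. Corrected for GC content and length the counts were 3 and 6 in Ad-JP2 and 3 and 14 in the libraries labelled Ad-shJP2.

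Among these, Itgav, a subunit of the integrins that release latent TGF-beta, rose from 36.0 ± 3.38 to 72.7 ± 8.33 TPM in Ad-JP2 (SD, n = 3; 2.02-fold). The protease gene Adamts1 rose 1.59-fold in Ad-JP2 (log2 fold change 0.66) and fell from 49.0 ± 1.31 to 10.8 ± 0.538 TPM in the libraries labelled Ad-shJP2 (-2.09). Thrombospondin-1 (Thbs1), an activator of latent TGF-beta, fell from 2100 ± 14.7 to 803 ± 3.42 TPM there (-1.39, and -0.97 after the correction). The integrin subunit gene Itgb1 fell from 769 ± 5.66 to 309.9 ± 3.44 TPM (-1.31, -0.79 after the correction), and its rise in Ad-JP2 (0.31) was -0.04 after the correction. All of these calls had limma adjusted p-values of at most 1.2e-04.

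Receptor partners and the enzymes that turn receptors over made up 23 tested genes. In Ad-JP2, 9 were higher and 0 lower (median 0.04), and in the libraries labelled Ad-shJP2, 5 were higher and 13 lower (21.7% and 56.5%, median -0.27), so that the share higher was that of all genes. After correction these counts were 3 and 4, and 9 and 11. The ubiquitin ligase Wwp1 rose from 3.8 ± 0.198 to 11 ± 0.174 TPM in Ad-JP2 (log2 fold change 1.32, 0.68 after correction) and fell to 1.24 ± 0.206 TPM in the libraries labelled Ad-shJP2 (-1.11, -0.33 after correction). The deubiquitinase Usp15, which stabilises the type I receptor, rose 2.34-fold in Ad-JP2 (1.12) and fell in the libraries labelled Ad-shJP2 (-1.11), and kept both calls after correction (1.03 and -0.93). Cd109, a TGF-beta co-receptor, rose in Ad-JP2 (0.58) but not after correction (0.12, limma adjusted p = 0.35). Ldlrad4, an inhibitor of SMAD activation, fell from 21.4 ± 0.601 to 9.19 ± 0.374 TPM in the libraries labelled Ad-shJP2 (-1.14).

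SMAD co-regulators, 29 tested genes, had the largest list median in Ad-JP2, 0.18, with 14 higher and 0 lower. The libraries labelled Ad-shJP2 had 5 higher and 18 lower (median -0.63). After correction the counts were 9 and 4 in Ad-JP2 and 8 and 10 in the libraries labelled Ad-shJP2, and the medians 0.03 and -0.09. The importin gene Ipo7, whose product carries SMADs into the nucleus, rose from 5.94 ± 0.496 to 22.2 ± 0.902 TPM in Ad-JP2 (log2 fold change 1.74, 1.19 after correction). The repressor gene Zeb2 rose 3.38-fold there (1.57, 1.09 after correction), and the transcription factor gene Sp1, whose product binds GC boxes, rose 2.21-fold (1.00, 0.48 after correction) and fell in the libraries labelled Ad-shJP2 (-1.22, -0.52 after correction). Smad6, the other inhibitory SMAD, fell from 81.3 ± 1.56 to 30.0 ± 0.318 TPM in the libraries labelled Ad-shJP2 (-1.41, SE 0.05, limma adjusted p = 4.6e-08). Zeb1, a relative of Zeb2, fell there as well (-1.24, -0.71 after correction). The fall of Smad6 was close in size to that of Smad7, and after correction it was -1.36 against -1.12.

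The branch of the pathway that signals without SMADs was represented by 18 tested genes, 6 higher and 0 lower in Ad-JP2 (median 0.05) and 4 higher and 8 lower in the libraries labelled Ad-shJP2 (22.2% and 44.4%, close to all genes; median -0.31). After correction the counts were 2 and 4, and 7 and 5, with a median of 0.08 in the libraries labelled Ad-shJP2, where the calls over all genes also turned from mostly lower to mostly higher. Map3k7, which encodes the kinase TAK1, fell from 32.1 ± 2.45 to 12.7 ± 2.38 TPM in the libraries labelled Ad-shJP2 (log2 fold change -1.28, -0.75 after correction), and its adaptor Tab2 fell from 14.8 ± 0.239 to 5.59 ± 0.236 TPM (-1.26). Tab2 rose 2.29-fold in Ad-JP2 (1.14, 0.94 after correction). Map3k7 (0.48) and the phosphatase subunit Ppp2r2a (0.35) also rose there, but neither kept its call after correction (0.10 and -0.09). The log2 fold change of Ppp2r2a in the libraries labelled Ad-shJP2 was -1.18, and -0.59 after correction.

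Genes that TGF-beta is known to induce were followed as a readout list of 30 tested genes, which includes Smad7 itself. In Ad-JP2, 6 were higher and 1 lower (median 0.01, and -0.01 with median-of-ratios scaling), and after correction 2 and 7. Counted in the libraries labelled Ad-shJP2, 6 were higher and 19 lower (median -0.41), and after correction 7 and 18. Periostin (Postn), a matrix protein of activated fibroblasts, rose from 89.1 ± 0.465 to 157 ± 3.21 TPM in Ad-JP2 (log2 fold change 0.81, 0.48 after correction) and fell to 21.8 ± 1.78 TPM in the libraries labelled Ad-shJP2 (-1.99). The alpha-actinin gene Actn1 rose by 0.18 in Ad-JP2 (0.10 after correction). The collagen gene Col1a1 rose by 0.10 there, a call that turned to -0.10 after correction. The cell cycle inhibitor gene Cdkn2b fell from 27.0 ± 0.925 to 11.7 ± 0.952 TPM in the libraries labelled Ad-shJP2 (-1.14).

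The targets did not move as a block in the libraries labelled Ad-shJP2, as a few more show that were chosen after their values were seen. Acta2, the myofibroblast actin, was higher in those libraries (0.30), while Ccn2 (-0.34), Pmepa1 (-0.88) and Skil (-1.15, -0.59 after correction) were lower. Skil, a feedback repressor of SMADs, was also higher in Ad-JP2 (0.66), but not after correction (0.27, limma adjusted p = 0.086).

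Activins and related ligands and receptors use Smad2, Smad3 and Smad4 in part, and 13 of them were tested. In Ad-JP2, 1 was higher and 0 lower (median 0.08), namely Inhba, which encodes an activin subunit (8.67 ± 0.273 to 14.8 ± 1.74 TPM, log2 fold change 0.70). Among the libraries labelled Ad-shJP2, 1 was higher and 9 lower (median -0.31). Gdf6, a bone morphogenetic protein, fell from 229.8 ± 1.81 to 56.7 ± 1.24 TPM (-2.0), the activin subunit gene Inhbb from 41.5 ± 0.758 to 18.3 ± 0.84 TPM (-1.14) and the activin antagonist follistatin (Fst) from 16.1 ± 2.74 to 5.85 ± 1.18 TPM (-1.32). The gene higher was Gdf15 (1.06), named after its value was seen. After correction the counts were 3 and 1 in Ad-JP2 and 2 and 8 in the libraries labelled Ad-shJP2.

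**Figure D5:**
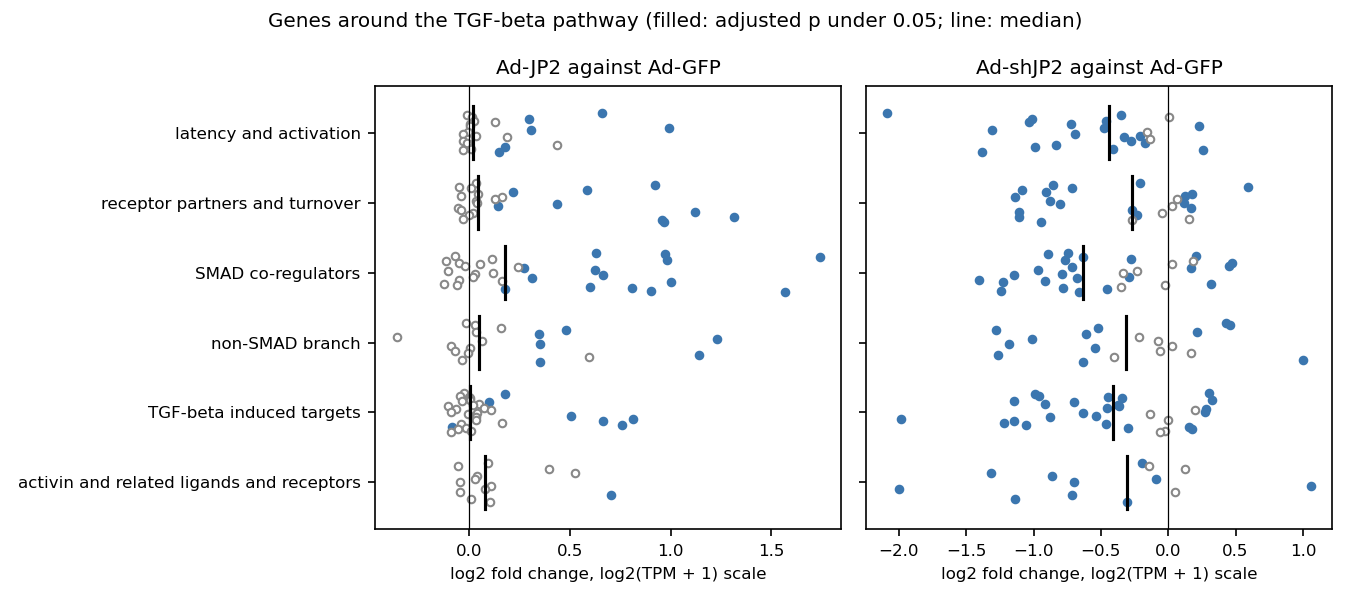
Log2 fold change on the log2(TPM + 1) scale (x axis) against Ad-GFP of each tested gene in 6 lists around the pathway (rows), for Ad-JP2 and for the libraries labelled Ad-shJP2; filled points had an adjusted p under 0.05 and lines are list medians. The list medians lie at 0.01 to 0.18 in Ad-JP2 and at -0.63 to -0.27 in the libraries labelled Ad-shJP2.

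Some, but not all, of the marker lists for cells that the cultures could hold also differed between the groups. Summed over 9 fibroblast markers the level was 4085 to 4141 TPM in Ad-GFP, 4232 to 4377 TPM in Ad-JP2 and 2523 to 2593 TPM in the libraries labelled Ad-shJP2, where 8 of the 9 were lower and 1 higher. Most of that sum was Col1a1, Col1a2 and Col3a1 (1570, 1341 and 700 TPM on average in Ad-GFP), named after their values were seen. These collagen genes also stand in the list of TGF-beta induced targets. Summed over 13 macrophage and leukocyte markers it was 2747 to 2785, 2530 to 2572 and 3203 to 3251 TPM in the same order. Of 11 tested, 2 were higher and 2 lower in Ad-JP2, and 7 higher and 3 lower in the libraries labelled Ad-shJP2. Cd3e was at 0 in all 9 libraries. Lyz2, a macrophage lysozyme, made up most of the macrophage and leukocyte sum, in cultures labelled as fibroblasts. It averaged 1730.2 TPM in Ad-GFP, 1556 TPM in Ad-JP2 and 2023 TPM in the libraries labelled Ad-shJP2. The 7 pericyte and smooth muscle markers summed to 85.8 to 92.0 TPM in Ad-GFP and Ad-JP2. In the libraries labelled Ad-shJP2 their sum was 45.0 to 47.9 TPM. Most of it was Pdgfrb, which averaged 76.5 TPM in Ad-GFP and 39.2 TPM in the libraries labelled Ad-shJP2. Rgs5, Kcnj8, Cspg4 and Abcc9 averaged at most 0.198 TPM in any group and were not tested. These genes were named after their values were seen. Of the 3 tested, 0 were called in Ad-JP2, and all 3 were lower in the libraries labelled Ad-shJP2. The 8 cardiomyocyte markers summed to 46.9 to 47.4 TPM in Ad-GFP, 39.1 to 45.5 TPM in Ad-JP2 and 29.4 to 32.4 TPM in the libraries labelled Ad-shJP2, with no overlap. Of the 4 tested, 0 were called in Ad-JP2, and all 4 were lower in the libraries labelled Ad-shJP2. Endothelial markers (32.4 to 43.8 TPM for 8) and epicardial markers (21.6 to 24.9 TPM for 7, with Muc16 at 0) stayed low in every library. The steady epicardial sum hid opposed changes in the libraries labelled Ad-shJP2, where 3 of 4 tested were lower and 1 higher. There Upk3b fell from 9.51 to 4.08 TPM and Krt19 rose from 7.19 to 17.5 TPM, both named after their values were seen. In bulk RNA, fewer cells of a type and less message per cell cannot be told apart, and the part of these markers in the member differences was not tested.

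Genes whose pattern over the 9 libraries lay nearest to each member with a called log2 fold change of at least 0.5 against the control were found among 8614 candidates. These candidates averaged at least 5 TPM over the 9 libraries. Likeness was the root mean square difference of centred log2(TPM + 1) values. As that scale understates changes of scarce messages, the genes nearest to Tgfbr1 and Tgfbr3 need not share their ratios of mean TPM. For Tgfb1 they were Taldo1 (0.022), Tsen34 (0.024) and Kif20a (0.028). The nearest to Tgfb2 were Steep1 (0.065), Serinc1 (0.065) and Vbp1 (0.068), and to Tgfbr1 Macf1 (0.096), Ddx6 (0.11) and Nek7 (0.11). Tgfbr3 was nearest to Hibch, Cdc40 and Cacul1 (0.062 to 0.087), Smad3 to Tmem276, Spon2 and Myl12b (0.049 to 0.076), and Smad4 to Zmiz1, Rab21 and Ttc28 (0.039 to 0.042). For Smad7 they were Jcad, Socs5 and Ldlrad4 (0.053 to 0.073). The levels of these neighbours differ from those of the members. Macf1 averaged 17.8, 53.7 and 7.51 TPM over Ad-GFP, Ad-JP2 and the libraries labelled Ad-shJP2, where Tgfbr1 averaged 2.19, 7.28 and 0.354 TPM. Taldo1 averaged 286, 277 and 435 TPM in the same order.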

How the data were processed

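Per the labels' protocols, stranded libraries were made from polyA RNA with a TruSeq kit. Per the submitters' processing notes, the tools were DRAGEN, Salmon and DESeq2 and the build GRCm39, with neither version nor role. The authors deposited TPM per gene for 9 libraries with 1 gene length and 1 effective length column in bases, both deposited per gene as other values. TPM keeps no depth, so reads were estimated from the steps of TPM times effective length. In Ad-GFP replicate 3, 94.3% of low genes lay within 0.1 of a whole read, and in the others 37.6% to 59.7%.

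From the TPM, log2(TPM + 1) was fitted with limma 3.58.1 in R 4.3.3 (3 group means, mean-variance trend) for 14215 genes with at least 1 TPM in at least 3 libraries. Comparisons were two-sided moderated tests with Benjamini-Hochberg adjustment over all genes tested and a threshold of 0.05. Fold values are ratios of mean TPM. An exact permutation test of 3 against 3 libraries cannot go below p = 0.1. The fit was also run on simulated data with few genes changed, as many up as down, and no effect of GC content. That setting cannot show how the fit handles differences as broad as those in these libraries.

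For the correction, each library's deviations from the gene means were regressed on splines of GC content and length, from the GENCODE M21 coding transcript nearest in length to the deposited length. Other settings were other pseudocounts, filters, scalings, a replicate block and leaving out each library.

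The members and lists were chosen with earlier results of these data known. Named genes were the members, Jph2 and, per list and comparison, up to 3 genes with the largest change among those called, with a mean of at least 5 TPM and no overlap of library values. The 3 nearest genes per member were also named. Others are said to be chosen after their values were seen. Some genes stand in 2 lists. No member coordinates are given in GRCm39, whose annotation was not used here. The values of 1 gene of the lists are not reported here, and it stayed in every test and count.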

Additional observations from a re-analysis of the deposited data

How the results depend on the processing

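The 30 member fold changes (10 members, 3 comparisons) were recomputed under 21 other settings, 627 values in all, of which 585 kept direction and side of the threshold. For 19 of the 30 every setting run did so. Of the sign changes, 16 involved a called value, all of Tgfbr2 or Smad2 after a correction for GC content and length. Corrected with the nearest coding transcript, with or without the replicate block, the log2 fold change of Smad2 became -0.33 in Ad-JP2 against Ad-GFP, 0.39 in Ad-shJP2 against Ad-GFP and -0.72 in Ad-JP2 against Ad-shJP2, and that of Tgfbr2 became 0.063 in Ad-shJP2 against Ad-GFP and -0.15 in Ad-JP2 against Ad-shJP2. With the longest transcript, a setting chosen after seeing the data, Smad2 gave -0.40, 0.54 and -0.94 and Tgfbr2 -0.16, 0.20 and -0.36 in the 3 comparisons. The cause was not tested. Another 15 were of differences near 0 called under neither setting. In Ad-JP2 against Ad-GFP, Tgfb3 (-0.0015) gave 0.014 with the longest transcript and ranged from -0.034 to 0.041 without 1 library each, above 0 without Ad-GFP replicate 1 or 2 or Ad-JP2 replicate 3. Tgfbr2 gave -0.090 after the correction, with or without the block. Smad2 gave -0.016 with median-of-ratios scaling, -0.063 with quantile normalization, and ranged from -0.061 to 0.038 without 1 library each, below 0 without Ad-GFP or Ad-JP2 replicate 2. With those 2 scalings Smad2 also gave 0.082 and 0.030 in Ad-shJP2 against Ad-GFP, and -0.098 and -0.093 in Ad-JP2 against Ad-shJP2, where it ranged from -0.032 (without Ad-JP2 replicate 2) to 0.067 without 1 library each. Other lost calls were Smad3 in Ad-JP2 against Ad-shJP2 (0.09 after the correction) and Tgfbr2 in the same comparison with median-of-ratios scaling (0.10). Tgfbr3 was not tested under the filter at 5 TPM. Between 3 and 6 members were called in Ad-JP2 against Ad-GFP over all settings and 8 to 10 in each of the other comparisons. Genes called without 1 library each were 1505 to 2264, 7703 to 8438 and 8393 to 8987, beside 2135, 8446 and 9152. Replicate numbers did not pair the libraries (9 same-number pairs, r from -0.113 to 0.110), and with the replicate block 1929, 8226 and 9009 genes and 4, 9 and 9 members were called. Scaling moved the split of higher and lower calls over all genes, to 4157 and 4333 (median-of-ratios) or 4233 and 3849 (quantile) in Ad-shJP2 against Ad-GFP, and to 1462 and 748 (quantile) in Ad-JP2 against Ad-GFP. For Ad-JP2 against Ad-shJP2 the split went from 5731 and 3421 to 4735 and 4634 (median-of-ratios), 4026 and 5570 (quantile) and 4078 and 4649 (GC). The median of all genes moved from -0.11 to -0.02 (median-of-ratios) or 0.02 (quantile) in Ad-shJP2 against Ad-GFP, and from 0.10 to -0.01 or -0.11 in Ad-JP2 against Ad-shJP2. Depth limits Tgfbr1 and Tgfbr3 most, in the libraries labelled Ad-shJP2.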
